A study of Saccharomyces cerevisiae YPS1009 with 8 samples.

Results

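Ribosome footprints of the aneuploid yeast Chr12, which carries chromosome XII in duplicate, were compared with those of the matching euploid on day 4 of culture. The comparison used 4 of the 8 libraries of the series, 2 of each strain, and set the libraries of replicate 1 against each other (pair 1) and those of replicate 2 against each other (pair 2). Both strains are haploids of YPS1009, a wild Saccharomyces cerevisiae of the North American lineage. They were grown in shaken flasks of rich YPD medium at 30 °C from an OD600 of 0.05, and the day 4 cells, in stationary phase, were filtered, frozen in liquid nitrogen and profiled by a commercial service with the Ezra-Seq method. The other 4 libraries hold the same strains after 3 generations in log phase and are given here only beside the day 4 values. The labels do not say which clone of each strain was profiled, so each strain is taken as 1 line.

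A ribosome footprint is the stretch of mRNA that a ribosome covers, and the number of footprints on a gene reflects both how much of its mRNA is present and how densely ribosomes load it. Yeast that has used up its glucose turns to respiration of ethanol and acetate, lowers ribosome production, builds up stress proteins and breaks down fatty acids in peroxisomes, and a healthy culture then comes to rest as quiescent cells. An additional chromosome raises the dose of every gene it carries and is known to load the machinery that makes and folds proteins.

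Levels are given as CPM, read counts scaled by TMM to a common library size. The day 4 libraries held 211302 and 6215498 reads in the euploid and 396306 and 2224955 reads in Chr12 (replicates 1 and 2). Replicate 1 was thus the shallower of the pair in both strains, and 713 genes had at least 50 reads in euploid replicate 1 against 4819 in replicate 2, with 1478 and 4140 in Chr12. Reads per occupied position were 2.30 and 10.95 in the euploid and 2.09 and 5.997 in Chr12, so the deeper libraries hold more repeated reads at the same position. The 7 genes that only cells of the a mating type express summed to between 94.7 and 169 CPM in the day 4 libraries, and the 3 tested alpha-specific genes to between 4.26 and 37.6. The study's methods describe no spike-in for the footprints, so every level is relative to the rest of its library, and fewer ribosomes on all genes could not be seen.

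Of 5794 genes tested, 499 lie on chromosome XII. A ratio is the log2 ratio of Chr12 to euploid within a pair, with 2 reads added as a prior and the median of the 5295 genes on other chromosomes set to 0. Ratios are given as pair 1 and pair 2, in that order. Over the genes off chromosome XII the ratios of the pairs had a Pearson correlation of 0.22, and over the 2000 of them with at least 50 reads in each pair of 0.42. These are correlations across genes, which are not independent replicates.

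**Figure D1:**
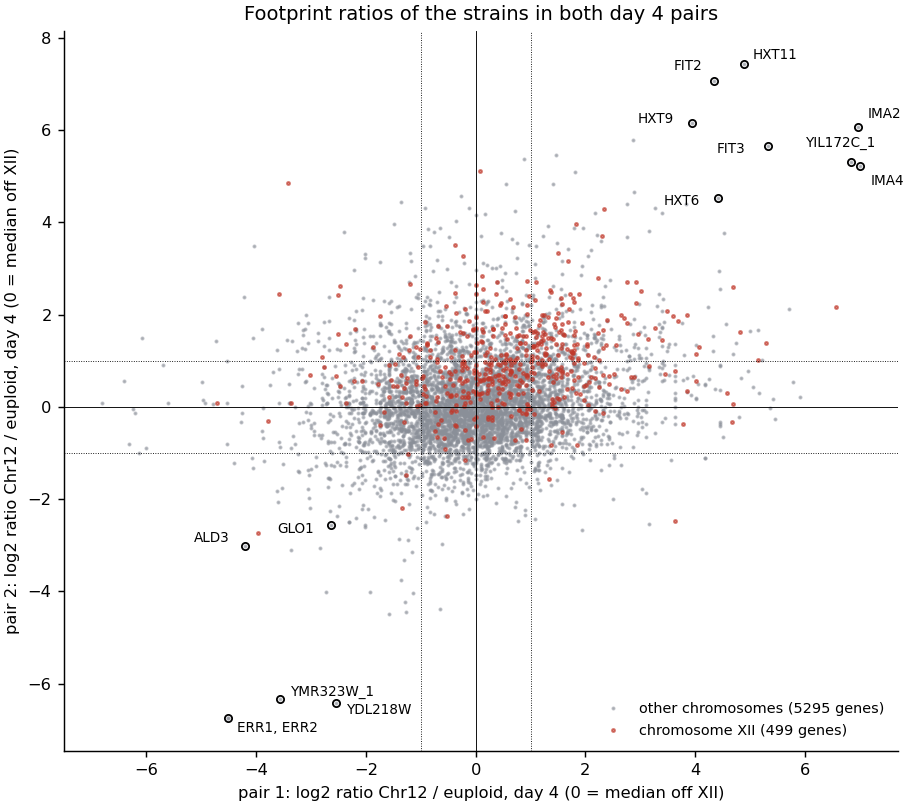
Log2 ratio of Chr12 to euploid at day 4 for 5794 genes, pair 1 on the x axis and pair 2 on the y axis, with 0 at the median of genes off chromosome XII. Red points are the 499 genes of chromosome XII, grey points the other 5295, circles mark named genes, and dotted lines mark a 2-fold ratio. A small group of sugar and iron genes stands at the upper right, and ERR1, ERR2, YMR323W_1, YDL218W, ALD3 and GLO1 stand at the lower left.

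Single genes were tested with edgeR's quasi-likelihood test over all 8 libraries. At day 4 it called 4 of 5794 genes, 0.069% of them, all higher in Chr12 and none on chromosome XII, and called 0 lower. At an unadjusted p under 0.05 there were 297 genes higher and 204 lower. The 4 genes were HXT6 and YDR342C_1, which are high-affinity glucose transporters, YIL172C_1, an isomaltase, and FIT3, a cell wall protein that holds iron carriers near the cell. Names ending in _1 are written as the files give them: YDR342C is the locus of HXT7 and YIL172C that of IMA3. All 4 calls were lost, with 0 to 3 other genes called, when any 1 of the day 4 libraries was left out, and with RLE size factors in place of TMM no gene was called.

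HXT6 had CPM values of 199 and 273 in the euploid and 4106 and 5979 in Chr12, a log2 fold change of 4.41 (SE 0.50, edgeR, adjusted p = 0.0499). Both Chr12 libraries lay far above both euploid libraries. In 13.5% of all genes off chromosome XII both Chr12 libraries were the higher ones, by any amount. YDR342C_1 had 297 and 239 in the euploid and 4073 and 4792 in Chr12, with a log2 fold change of 4.05 (SE 0.48, adjusted p = 0.0499). Its reads lay on 601 and 959 positions of the gene in Chr12 and on 62 and 272 in the euploid, so they were not the product of a single position. HXT6 and HXT7 are near-identical in sequence, and how reads were divided between such copies is not given in the sources used here. The values of HXT6 and YDR342C_1 are thus read together and not as separate results. HXT9 and HXT11, distant members of the same hexose transporter family, were nearly without reads in the euploid. HXT11 had 4 and 4 reads in euploid cells and 252 and 687 in Chr12, and HXT9 had CPM values of 11.3 and 1.29 in the euploid and 181 and 152 in Chr12. Both missed the threshold (edgeR, adjusted p = 0.268 for HXT11 and adjusted p = 0.143 for HXT9). How reads of alike sequence were divided is not given for them either, so they are not taken as separate results.

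The hexose transporters as a family differed less. Over the 15 tested members of the family on other chromosomes the median ratios were 0.19 and 1.24, 9 lay above the median in both pairs and 2 below, where 27.9% of all genes off chromosome XII did in each direction. HXT6, HXT9 and HXT11 were the 3 of these 15 (20%) at least 2-fold higher in both pairs, against 4.57% of all genes off chromosome XII. HXT9 and HXT11 passed the filter on low counts only through the Chr12 libraries. YDR342C_1, the locus of HXT7, is not among the 15 under its name in the files, and with it the medians were 0.30 and 1.40 and 4 of 16 were 2-fold higher. HXT3, a low-affinity transporter, had ratios of 0.71 and 4.26, and HXT4 had 0.76 and 3.56, so pair 2 carried most of their difference. In the family 5 members passed that filter only through the Chr12 libraries and 3 only through the euploid ones.

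Most isomaltases, which release glucose from isomaltose, were also high. YIL172C_1 had 2 and 168 reads in euploid cells and 519 and 2729 in Chr12, IMA2 had 3 and 143 in the euploid and 818 and 3910 in Chr12, and IMA4 had 2 and 191 in the euploid and 579 and 2873 in Chr12. Between 2 and 3 reads stood in euploid replicate 1 for each, so the ratio in pair 1 is loosely bounded, at 125 (95% interval 34.4 to 1034) for YIL172C_1, 131 (95% interval 44.8 to 638) for IMA2 and 139 (95% interval 38.4 to 1153) for IMA4. These exact intervals cover counting error only. In pair 2, where the euploid held 143 reads of IMA2, that gene's ratio was 65.6 (95% interval 55.5 to 78.1). YIL172C_1 was called, with a log2 fold change of 5.66 (SE 0.68, adjusted p = 0.0499), and IMA2 and IMA4 were not (edgeR, adjusted p = 0.0893 and adjusted p = 0.0905). The isomaltase genes are near-identical too. SUC2, the invertase that splits sucrose, had CPM values of 33.8 and 25.3 in the euploid and 322 and 489 in Chr12 and ratios of 3.27 and 4.30 (adjusted p = 0.0893). Over the 18 tested genes of sucrose, maltose and galactose use the median ratios were only 0.07 and 0.23, and IMA2, IMA4, SUC2 and IMA1 were the 4 of these 18 at least 2-fold higher in both pairs. YIL172C_1 is not among the 18 under its name in the files, and with it the medians were 0.13 and 0.42 and 5 of 19 were 2-fold higher. Of all genes off chromosome XII, 4.57% were 2-fold higher in both pairs. IMA5, a more distant isomaltase, had 5 and 10 reads in euploid cells and 8 and 9 in Chr12 and ratios of -0.30 and 0.87.

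Iron genes were the other group with members far above the euploid. FIT3 had CPM values of 11.3 and 8.23 in the euploid and 470.1 and 437 in Chr12, with a log2 fold change of 5.63 (SE 0.68, adjusted p = 0.0499). FIT2, of the same kind, had 4 and 29 reads in euploid cells and 172 and 1849 in Chr12 and ratios of 4.34 and 7.07. FTR1 and FET3 are the permease and the oxidase of the high-affinity uptake complex. FTR1 had 18.8 and 65.5 CPM in euploid cells and 410.4 and 484 in Chr12, and FET3 had 26.3 and 17.1 in the euploid and 121 and 226 in Chr12. SIT1, a transporter of siderophores, had 52.6 and 32.4 in the euploid and 212 and 306 in Chr12. AFT1, the factor that turns these genes on when iron is scarce, had ratios of 1.54 and 2.34. None of FIT2, FTR1, FET3, SIT1 and AFT1 passed the threshold, with adjusted p-values from 0.13 to 0.356, and in each both Chr12 libraries lay above both euploid libraries. Of all genes off chromosome XII, 13.5% stood apart in this way with Chr12 higher and 17.3% with Chr12 lower.

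The 29 tested iron genes off chromosome XII had median ratios of -0.09 and 0.91. Those 5 genes and FIT3 made up the 6 members (20.7%) that were at least 2-fold higher in both pairs, against 4.57% of all 5295 genes off chromosome XII (242 genes). Over all chromosomes 354 genes (6.11%) were 2-fold higher in both day 4 pairs and 160 (2.76%) 2-fold lower. Off chromosome XII the shares were 4.57% and 2.95% at day 4 and 0.604% and 0.925% in log phase. Ratios off chromosome XII also spread less in log phase. Their quartiles spanned 0.57 and 0.69 in log phase against 1.62 and 1.06 at day 4. How far read depth shaped these shares was not tested. No tested iron gene off chromosome XII was 2-fold lower in both day 4 pairs. Genes just inside that limit were RPA49, with ratios of 1.19 and 1.01, and CDC31, with 1.30 and 1.01, and just outside it was RPL3, with 1.41 and 0.99.

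**Figure D2:**
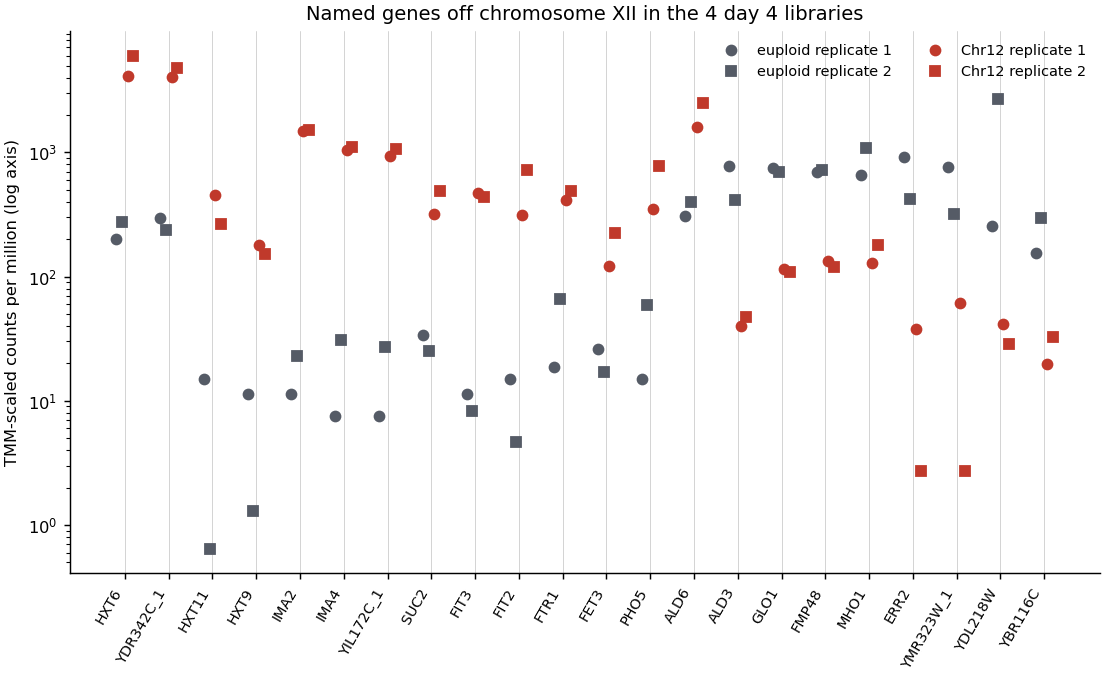
CPM (log axis) of 22 named genes off chromosome XII in the 4 day 4 libraries, grey for euploid and red for Chr12, circles for replicate 1 and squares for replicate 2. From HXT6 to ALD6 both red points lie above both grey points, and from ALD3 to YBR116C both lie below them. Over all genes off chromosome XII the shares were 13.5% above and 17.3% below.

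Some phosphate genes also stood higher. PHO5, the secreted acid phosphatase made when phosphate is scarce, had CPM values of 15.02 and 58.7 in the euploid and 353 and 769 in Chr12 and ratios of 4.52 and 3.77 (edgeR, adjusted p = 0.184). Of 26 tested genes of the phosphate response, 6 (23.1%) were at least 2-fold higher in both pairs and 1, PHM7, was lower, with ratios of -1.50 and -1.66. With YAR071W_1, the locus of PHO11, 7 of 27 were higher, and over all genes off chromosome XII 4.57% were higher and 2.95% lower. The group medians were 0.96 and 0.18, so pair 1 carried the shift of the group as a whole. ALD6, the aldehyde dehydrogenase that makes acetate in the cytosol, had 308 and 395 CPM in euploid cells and 1615 and 2504 in Chr12, and OYE2, an NADPH oxidoreductase, had 5 and 41 reads in euploid cells and 77 and 466 in Chr12. CHA1, which deaminates serine and threonine, had 33.8 and 16.1 CPM in euploid cells and 242 and 891 in Chr12. None of these passed the threshold in edgeR, with adjusted p-values of 0.184 for ALD6, 0.143 for OYE2 and 0.157 for CHA1.

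Functional groups were then read through 55 lists of genes, 53 of which had at least 4 tested members off chromosome XII. A list was taken to differ where its median lay at least 0.5 from 0 with the same sign in both pairs. There were 5 lists higher in Chr12 (the small and large ribosomal subunits, respiratory chain and ATP synthase, purine synthesis and one-carbon metabolism, and ergosterol synthesis) and 1 lower (peroxisomal fatty acid oxidation). The difference was spread over many members in each, and edgeR called no member of these 6 lists. A list that differs by this rule is a description of these 4 libraries. A further 7 lists are shown because at least 20% of their tested members were 2-fold higher, or 2-fold lower, in both pairs, a limit chosen after the values were seen. The a-specific mating type genes, with 2 of 7 2-fold lower and 1 higher, also met it and are given above only as a sum. In the fit over all libraries the medians of the 40S (0.44), 60S (0.48) and ergosterol (0.21) lists were under 0.5 without euploid replicate 1, and so did those of the 40S (0.495) and purine (0.31) lists without Chr12 replicate 2.

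Ribosomal protein genes were higher by a small and even amount. The 49 tested genes of the 40S subunit had median ratios of 0.70 and 0.72, with 40 above the median of other genes in both pairs and 0 below. The 70 of the 60S subunit had 0.79 and 0.76, with 60 above and 1 below. Against a background of 27.9% in each direction, 81.6% and 85.7% of the members were above. Few reached 2-fold in both pairs, 3 (6.12%) of the 40S and 8 (11.4%) of the 60S genes, against 4.57% of all genes off chromosome XII. RPS20 had CPM values of 177 and 154 in the euploid and 459 and 300.4 in Chr12, RPS28A had 71.4 and 72.3 in the euploid and 179 and 168 in Chr12, and RPS24B had 93.9 and 78.2 in the euploid and 186 and 228 in Chr12. RPL37B had the largest difference among the 60S genes off chromosome XII named by the rule, with 52.6 and 77.9 in the euploid and 318 and 188 in Chr12, though 52.3% of its reads in Chr12 replicate 1 stood at a single position. RPS30B had ratios of 1.20 and 0.93, RPL42A of 1.49 and 1.24, RPP2B, of the acidic stalk, of 1.55 and 1.18, and RPL29 of 1.61 and 1.14. In log phase, in separate cultures of the same strains, the list medians were -0.20 and 0.09 for the 40S and -0.20 and 0.08 for the 60S subunit. Most ribosomal proteins have 2 gene copies of near-identical sequence, so the division of reads between copies bears more on single genes than on the group. Aminoacyl-tRNA synthetases, at 0.44 and 0.46 over 20 genes, and the genes of ribosome biogenesis and RNA polymerase I, at 0.31 and 0.47, lay just under the limit, with 12 of 20 genes and 49.5% of the genes above the median in both pairs. Mitochondrial ribosomal proteins, at 0.00 and 0.12 over 73 genes, were close to the median in both pairs.

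The respiratory chain and ATP synthase had the widest difference of the groups whose medians were alike in both pairs. Its 37 tested genes off chromosome XII had median ratios of 0.98 and 1.09. In both pairs 29 (78.4%) were above the median and 1 below, against 27.9% of all genes off chromosome XII in each direction. At least 2-fold higher in both were 15 (40.5%), against 4.57% of all genes off chromosome XII. CYC1, cytochrome c, had CPM values of 105 and 102 in the euploid and 391 and 809 in Chr12. Both Chr12 libraries lay above both euploid libraries, as in 13.5% of all genes off chromosome XII. COX4, a subunit of cytochrome c oxidase, had 124 and 327 in the euploid and 526 and 1154 in Chr12. Of the small ATP synthase subunits, ATP20 had 6 and 639 reads in euploid cells and 69 and 820 in Chr12 and ATP19 had 1 and 319 reads in euploid cells and 80 and 395 in Chr12. With 1 read of ATP19 in euploid replicate 1, its ratio in pair 1 was 38.5 (95% interval 6.72 to 1539.7). ATP1, the alpha subunit of the catalytic head, had ratios of 3.01 and 1.06, and ATP2, the beta subunit, 3.49 and 1.21. QCR2, of the cytochrome bc1 complex, had 2.97 and 1.12, and NDE1, the external NADH dehydrogenase, 2.24 and 1.20. The exception below the median in both pairs was COX5B, the form of subunit 5 used when oxygen is low, at -0.69 and -0.29, while its aerobic partner COX5A was at 1.08 and 1.49.

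The same list was lower in Chr12 in log phase, with medians of -1.20 and -0.75. It shared this with genes of the tricarboxylic acid cycle, at -0.90 and -0.58, and mitochondrial ribosomal proteins, at -0.87 and -0.68. CYC1 then had ratios of -1.55 and -0.64 and COX4 of -1.48 and -0.95. edgeR's test of the change between phases called 0 of 5794 genes, with 245 at an unadjusted p under 0.05, and gave an adjusted p of 0.59 for CYC1. Of 17 genes of the tricarboxylic acid cycle, which feeds the chain, 13 (76.5%) were above the median in both pairs. The share over all genes off chromosome XII was 27.9%. The cycle's genes were higher in pair 1 and close to the median in pair 2 (1.94 and 0.26). Gluconeogenesis and the glyoxylate cycle followed the same course (2.33 and -0.03, 23 genes), and lower glycolysis had opposite signs in the pairs (1.10 and -0.63, 11 genes).

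**Figure D3:**
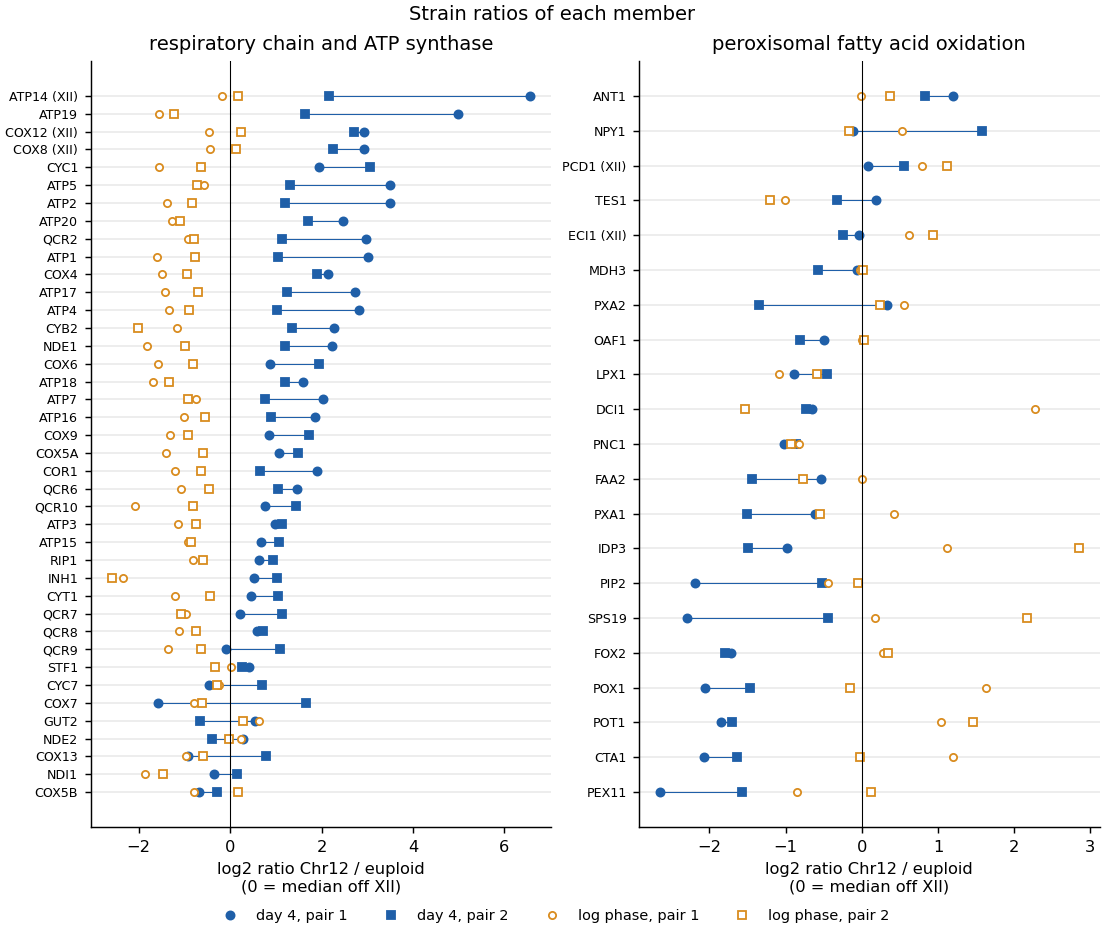
Log2 ratio of Chr12 to euploid for every tested member of the respiratory chain and ATP synthase list (left) and of the peroxisomal fatty acid oxidation list (right). Filled blue symbols are day 4 and open orange symbols log phase, circles pair 1 and squares pair 2, and members on chromosome XII are marked. Respiratory genes lie mostly right of 0 at day 4 and left of 0 in log phase, and FOX2, POX1, POT1, CTA1 and PEX11 lie at the bottom of the right panel, all below -1 at day 4.

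Peroxisomal fatty acid oxidation was the list that was lower. Its 19 tested genes off chromosome XII had median ratios of -0.88 and -0.86. Below the median in both pairs were 15 (78.9%), against 27.9% of all genes off chromosome XII, and 1, the ATP carrier ANT1, was above. The 5 genes at least 2-fold lower in both pairs (26.3%, against 2.95% of all genes off chromosome XII, 156 genes) were FOX2, POT1, POX1, CTA1 and PEX11. FOX2, which carries out the middle steps of beta-oxidation, had CPM values of 1878 and 1749 in the euploid and 549.6 and 474 in Chr12. POT1, the thiolase of the last step, had 672 and 706 in the euploid and 179 and 203 in Chr12, and CTA1, the peroxisomal catalase, had 3328 and 1399 in the euploid and 759 and 422 in Chr12. In Chr12 replicate 1, 55.2% of the CTA1 reads stood at a single position. PEX11, which drives division of the organelle, had 593 and 526 in the euploid and 90.4 and 166 in Chr12. In each the euploid libraries lay above the Chr12 libraries, as in 17.3% of all genes off chromosome XII, and none was called, with adjusted p-values in edgeR from 0.295 for FOX2 to 0.515 for CTA1. The peroxins, which build the organelle, had medians of -0.37 and -0.57 over 26 genes and missed the limit in pair 1. In log phase the oxidation list had medians of 0.17 and -0.02.

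Purine synthesis and one-carbon metabolism (36 genes) had medians of 0.70 and 0.89. Of these genes 18 (50%) were above the median in both pairs and 5 (13.9%) below. All genes off chromosome XII had 27.9% in each direction. In both pairs 7 (19.4%) were 2-fold higher and 1 (2.78%) lower, URA10 at -1.66 and -1.16. The shares over all genes off chromosome XII were 4.57% and 2.95%. FCY2, the permease for purines and cytosine, had 37.6 and 70.3 CPM in euploid cells and 188 and 307 in Chr12, and FUR4, that for uracil, had 15.02 and 29.2 in the euploid and 75.9 and 83.2 in Chr12. ADE1, of the purine pathway, had 30.05 and 89.4 in the euploid and 97.6 and 269 in Chr12. PRS4, which makes the ribose donor of nucleotides, had 1 and 182 reads in euploid cells and 47 and 331 in Chr12, with a ratio of 22.6 (95% interval 3.87 to 912) in pair 1. Ergosterol synthesis (26 genes) had medians of 1.51 and 0.57. Of its genes 17 (65.4%) were above the median in both pairs and 2 (7.69%) below, against the same 27.9%. MVD1, of the mevalonate pathway, had 30.05 and 35.97 CPM in euploid cells and 86.8 and 159.5 in Chr12, and ERG2, a late isomerase, had 33.8 and 39.7 in the euploid and 103 and 98.3 in Chr12. CYB5, cytochrome b5, which donates electrons in the pathway, had ratios of 2.95 and 1.29, and ERG29 had 2.20 and 1.44. This list was also above 0 in log phase, at 0.48 and 0.59.

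**Figure D4:**
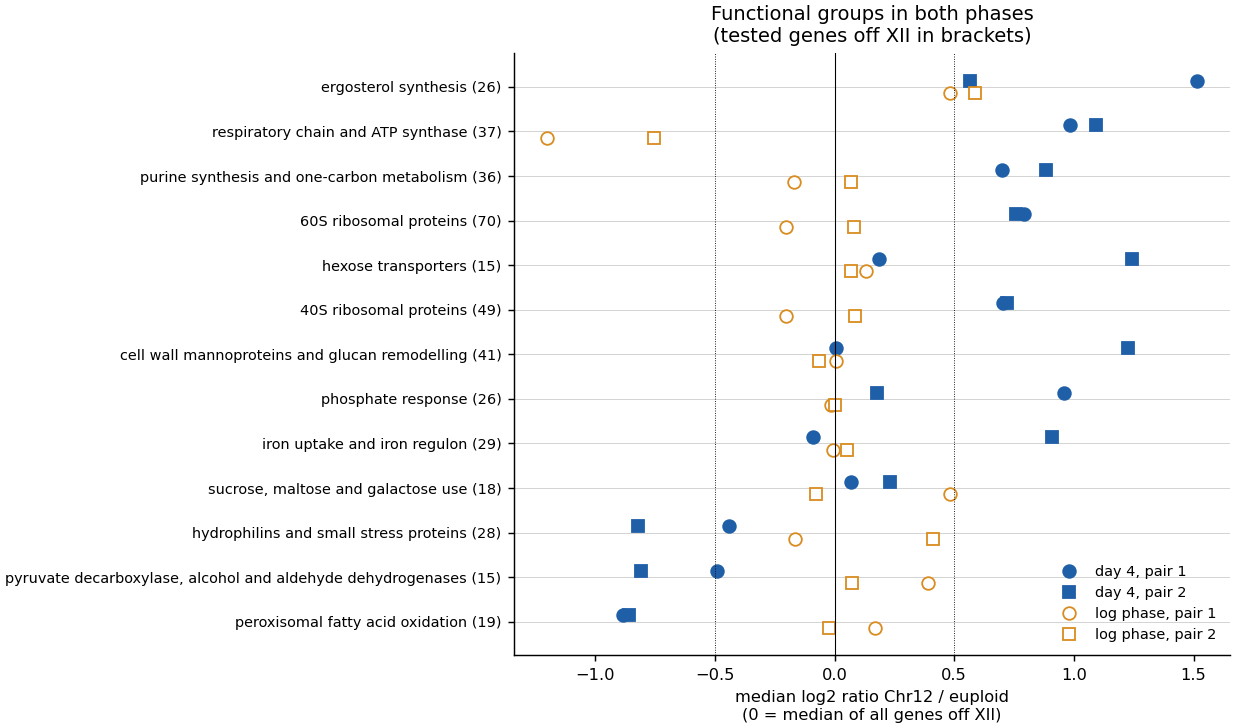
Median log2 ratio of Chr12 to euploid of 13 functional lists, members on chromosome XII left out, with the number of tested genes in brackets. Filled blue symbols are day 4 and open orange symbols log phase, circles pair 1 and squares pair 2, and dotted lines mark 0.5. The respiratory chain list lies near 1 at day 4 and below -0.5 in log phase.

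Stress genes were among those lower in Chr12. Hydrophilins and small stress proteins, which protect drying or resting cells, had medians of -0.44 and -0.82 over 28 genes. In both pairs 9 (32.1%) were at least 2-fold lower and 3 (10.7%) higher, against 2.95% and 4.57% of all genes off chromosome XII. The list missed the limit of 0.5 in pair 1. GRE1, a hydrophilin and the gene with the most reads in euploid replicate 1, had 16583 and 26120.4 CPM in euploid cells and 2547 and 5131 in Chr12. HSP12, a small heat shock protein of the membrane, had 9706 and 6709 in the euploid and 2226 and 1357 in Chr12, and SIP18 had 9503 and 15683 in the euploid and 2529 and 2839.8 in Chr12. The 3 higher members were HOR7, YGP1 and RGI1, with ratios of 1.93 and 2.87, 2.35 and 2.62 and 2.40 and 1.87. Aldehyde dehydrogenases were divided. ALD3, a stress-induced form, had 781 and 417 CPM in euploid cells and 39.8 and 47.6 in Chr12 and ratios of -4.21 and -3.02 (edgeR, adjusted p = 0.143), and ALD2, its neighbour, had ratios of -1.75 and -1.76, against 2.44 and 2.74 for ALD6. The list of pyruvate decarboxylases and alcohol and aldehyde dehydrogenases had medians of -0.49 and -0.81 over 15 genes.

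Other genes at the lower end did not all belong to a common list. GLO1, glyoxalase I, which removes methylglyoxal, had 751 and 691 CPM in euploid cells and 116 and 109 in Chr12 (adjusted p = 0.13). FMP48 had 695 and 724 in the euploid and 134 and 120.4 in Chr12, and MHO1 had 661 and 1085 in the euploid and 128 and 180.4 in Chr12. The strains did not overlap in any of the 3, as in 17.3% of all genes off chromosome XII with Chr12 lower, and none was called. YDL218W, a gene of unknown function, had 68 and 16770 reads in euploid cells and 23 and 74 in Chr12 and ratios of -2.54 and -6.43. The enolase-related genes ERR1 and ERR2 held the same counts in every library, 245 and 2604 in the euploid and 21 and 7 in Chr12, and are near-identical copies, so their reads cannot be told apart. YMR323W_1, whose stem is the locus of ERR3, had 204 and 1964 in the euploid and 34 and 7 in Chr12, and passed the filter on low counts only through the euploid libraries. In euploid replicate 1, 65.7% of the ERR2 reads and of those of its copy ERR1 stood at a single position. YBR116C, which overlaps the transketolase gene TKL2, had 41 and 1840 reads in euploid cells and 11 and 84 in Chr12, and reads of the overlap may count for both. PIR3, a cell wall protein, had 1916 and 3577 CPM in euploid cells and 407 and 639 in Chr12. It was one of 2 of the 41 cell wall genes that were 2-fold lower in both pairs, with AGA1, while 9 were 2-fold higher. These included GAS5, with 3 and 22 reads in euploid cells and 22 and 160 in Chr12, SCW4, a wall protein related to glucanases, with 10 and 19 in the euploid and 56 and 432 in Chr12, and CWP1, with 19 and 3830 in the euploid and 403 and 4906 in Chr12. The list medians were 0.01 and 1.23.

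Genes on chromosome XII were higher as a whole. The median of the 499 genes lay 0.56 above that of other genes in pair 1, a fold of 1.48, and 0.87 above in pair 2, a fold of 1.83, and in the fit over all libraries 0.81 above, a fold of 1.76. In log phase the same difference was 0.72 and 0.69. No other chromosome had a median past -0.22 or 0.17 in either pair. Between the quartiles the chromosome XII genes spanned 1.66 on the log2 scale in pair 1 and 1.12 in pair 2, so single genes spread more widely than the shift itself. Of the 499 genes 63.5% were above the median of other genes in both pairs and 5.21% below, and 22.4% were at least 2-fold above. The left arm, with 61 genes, had medians of 0.27 and 0.83, and the right arm, with 438 genes, 0.62 and 0.89.

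**Figure D5:**
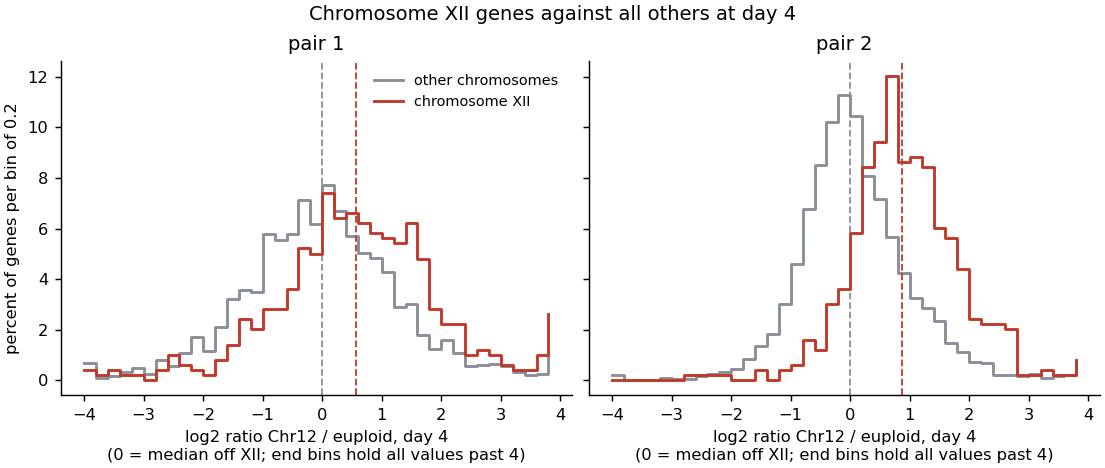
Distribution of the log2 ratio of Chr12 to euploid at day 4 in pair 1 (left) and pair 2 (right), as percent of genes per bin, red for the 499 genes of chromosome XII and grey for the other 5295, with dashed lines at the medians. The red curve is shifted right by 0.56 in pair 1 and 0.87 in pair 2.

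Against the median of their own chromosome, 23 of the 499 genes (4.61%) were at least 2-fold higher in both pairs and 14 (2.81%) at least 2-fold lower, shares close to the 4.57% and 2.95% of the other chromosomes. COX12 and COX8, subunits of cytochrome c oxidase, were among the highest, in the same direction as the respiratory genes elsewhere. COX12 had CPM values of 63.9 and 424 in the euploid and 474 and 2631 in Chr12, and its ratios to the chromosome XII median were 2.36 and 1.84. COX8 had 67.6 and 303 in the euploid and 501 and 1358 in Chr12, with 2.36 and 1.37. ATP14, the third respiratory gene on the chromosome, had 1 and 1309 reads in euploid cells and 239 and 2313 in Chr12, and its ratio in pair 1 was 115 (95% interval 20.5 to 4563). AQY2, an aquaporin, had 52.6 and 39.7 CPM in euploid cells and 255 and 499 in Chr12, and YLL053C, the adjacent open reading frame, 56.3 and 39.2 in the euploid and 278 and 741 in Chr12. The highest position of each held 4 and 89 reads in euploid replicates 1 and 2 and 301 in Chr12 replicate 2. In Chr12 replicate 1 it held 12 reads in AQY2 and 26 in YLL053C. The same reads may thus count for both genes, so they are not taken as separate results. Both were also high in log phase, with ratios to the other chromosomes of 1.96 and 1.96 for AQY2 and 2.08 and 2.05 for YLL053C. CIS1 had ratios to the chromosome XII median of 1.67 and 1.92, and ZRT2, the low-affinity zinc transporter, of 1.32 and 1.57. Of all these, none was called.

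Genes of the chromosome that were low in spite of the additional copy included UBI4 and AHP1. UBI4, which encodes polyubiquitin, had 4481 and 2209 CPM in euploid cells and 1349 and 1931 in Chr12 and ratios of -1.68 and -0.11 to the other chromosomes. How reads of repeated ubiquitin sequence were divided is not given in the sources used here, so its level is uncertain. AHP1, a peroxiredoxin, had 3332 and 1450.2 in the euploid and 1999.6 and 1057 in Chr12, with ratios of -0.68 and -0.37. STE23, a protease of pheromone maturation, had ratios of -1.74 and -0.39, BPT1, a vacuolar transporter, of -0.64 and -0.29, VPS13, a lipid transfer protein, of -0.58 and -0.68, and PUT1, the first enzyme of proline breakdown, of -0.56 and -0.91. A single position held 55.9% of the 34 STE23 reads in euploid replicate 1 and 28.7% of those in Chr12 replicate 2. In log phase all 6 had ratios above 0 in both pairs, from 0.09 to 1.33, both of them values of PUT1. Only RNP1, SUL2, YLR125W and YLR230W, 4 of 499 genes (0.802%), were at least 2-fold below the median of the other chromosomes in both pairs. They were singled out after their values were seen and held at most 37 reads in any day 4 library.

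Lists with at least 4 tested members on the chromosome numbered 13, and 3 of them differed from the chromosome XII median by the same limit, all higher. The 10 genes of the 60S subunit had medians of 0.75 and 0.79 against their chromosome, with all 10 above it in both pairs (background 29.9%), and 1.31 and 1.67 against the others. RPL38 was the highest in pair 1, with 60.1 and 124 CPM in euploid cells and 369 and 469 in Chr12, RPL26A the highest in pair 2, with 63.9 and 84.4 in the euploid and 184 and 379.8 in Chr12, and RPP0, the base of the stalk, had 372 and 513 in the euploid and 826 and 923 in Chr12. RPL10, RPL15A, RPL22A, RPL31B, RPL37A, RPL6B and RPL8B lay between 0.25 and 1.12 above the chromosome XII median in pair 1 and 0.02 and 1.11 in pair 2. The 8 genes of the 40S subunit, at 0.48 and 0.63, missed the limit in pair 1. The 6 iron genes had medians of 0.82 and 0.56, with 5 above in both pairs. FRE1, a ferric reductase, had 67.6 and 42.6 CPM in euploid cells and 235 and 639.6 in Chr12, TIS11, which removes mRNAs of iron-using proteins, 11 and 1371 reads in euploid cells and 199 and 1507 in Chr12, and HMX1, heme oxygenase, 14 and 971 in the euploid and 148 and 969 in Chr12. FRE6 and SMF3, of the vacuole, had ratios to the chromosome XII median of 0.37 and 1.86 and 0.34 and 0.52, and CCC1, which stores iron in the vacuole, -0.08 and -0.35. The 7 cell wall genes had medians of 0.53 and 1.10. EXG1 had 11 and 1754 reads in euploid cells and 273 and 2720 in Chr12, CCW14 8 and 718 in the euploid and 158 and 928 in Chr12, FKS1, of the glucan synthase, 49 and 509 in the euploid and 210 and 1324 in Chr12, and CRR1 13 and 431 in the euploid and 38 and 332 in Chr12. GAS2 had at most 16 reads in any day 4 library. CCW12 (-0.94 and 2.63) and CTS1 (-3.99 and 3.98), the chitinase that parts mother from daughter, had opposite signs in the pairs.

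The remaining lists on the chromosome did not pass the limit in both pairs. Of the ergosterol genes there, ERG3 had 21 and 2799 reads in euploid cells and 550 and 4003 in Chr12 and ratios to the chromosome XII median of 3.13 and 0.99, ERG27 ratios of 1.24 and 0.47, and HMG2, a form of the rate-limiting reductase, -0.98 and -0.94. The 5 genes of the purine and one-carbon list (ADE13, ADE16, SHM2, IMD3 and URA4, the last of pyrimidine synthesis) had medians of 0.48 and 0.00, 4 translation factors 0.56 and 0.47, 12 genes of ribosome biogenesis 0.40 and 0.63 and 4 of gluconeogenesis 2.06 and 0.14. Autophagy genes (8) lay below, at -0.39 and -0.47, and so did 7 genes of sulfur assimilation, at -1.27 and -0.32, and 4 of ubiquitin supply, at -1.37 and -0.09. DNA replication and cell cycle genes (7) had opposite signs, at -0.56 and 0.73.

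With 2 libraries per strain an exact permutation test of a single value cannot fall below a two-sided p of 0.333. Calls therefore rest on edgeR's spread over all 8 libraries. That spread is pooled over both phases, and ratios off chromosome XII spread less in log phase than at day 4. The 4 day 4 libraries alone gave 0 calls. How far the pooling lowered the adjusted p-values was not tested. The replicates came as biological duplicates per the series' design, and the shallow replicate 1 libraries limit the precision of the ratios in pair 1. For genes far higher in Chr12 the smaller count was that of the euploid. For genes far lower it was that of Chr12, as in ALD3, with 208 reads in euploid replicate 1 and 22 in Chr12 replicate 1.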

How the data were processed

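Ribosome profiling libraries of 4 groups, with 2 replicates each, were taken as counts per nucleotide of each gene, as deposited. The authors trimmed reads with CutAdapt, dropped those that began with a poor base or matched noncoding RNA, mapped what was left to YPS1009 with bowtie2, and scored 5′ ends over each coding sequence plus 72 nt upstream and 60 nt downstream. No removal of duplicates is described. A gene's count was the sum of its positions. Of 6536 names, 4 without a systematic name, with at most 0.0222% of a library's reads, were left out, and 5821 of the other 6532 matched the R64 gene table, from which symbols but no coordinates were taken. Names starting YL lie on chromosome XII. Second tables of the replicate 1 libraries, whose making is not stated, served as an alternative.

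Counts were tested with edgeR 4.0.16 under R 4.3.3 (TMM, expression filter, quasi-likelihood, 4 group means, no replicate block, Benjamini-Hochberg, FDR 0.05). On simulated counts for this comparison over 5794 genes the test recovered 0% of 200 genes whose true log2 change was 1. It recovered 4.00% at a change of 2 and 91.5% at a change of 4, with 0, 0 and 12 false calls in turn. In such counts most smaller changes would thus be missed. Unlike the data, the simulated counts had the same mean in both phases and no effect of the pair. Members, lists and limits were chosen with earlier results of these data known. Genes were named by rule: those called; the 8 highest and 8 lowest off chromosome XII and the 6 and 6 on it by the pair ratio nearer 0, with at least 50 reads in each pair; up to 4 members of each list that differs; and list members on chromosome XII, where longer lists are given by medians. Genes named outside the rule were chosen after their values were seen. DESeq2 1.42.0 and the other alternatives are described at the end.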

Additional observations from a re-analysis of the deposited data

Results flagged for a closer look

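The respiratory chain and ATP synthase list was below other genes in both log phase pairs (-1.20 and -0.75) and above them in both day 4 pairs (0.98 and 1.09). The mean of its day 4 medians exceeded that of its log phase medians by 2.02 on the log2 scale. The list of pyruvate decarboxylases and alcohol and aldehyde dehydrogenases moved the opposite way, with a difference of -0.88. These differences between phases of the list medians were not tested.

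HXT6 and YDR342C_1 were lower in Chr12 in both log phase pairs (-1.11 and -0.84, and -1.91 and -1.35 for YDR342C_1) and higher in both day 4 pairs, with differences between the phases of 5.45 and 5.75. GLO1 and YDL218W were higher in both log phase pairs (0.06 and 0.14, and 1.86 and 0.27 for YDL218W) and lower in both day 4 pairs, with differences of -2.70 and -5.54. In edgeR's test of the change between phases HXT6 and YDR342C_1 had an adjusted p of 0.106, GLO1 of 0.59 and YDL218W of 0.665, so none passed the threshold.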

How the results depend on the processing

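Main values were 4 genes called at day 4, 0 called for the change between phases, a chromosome XII shift of 0.81, and 354 and 160 genes at least 2-fold higher and lower in both pairs. The count of calls depended on the processing: 0 with RLE size factors, with no filter on low counts, with whole-codon genes only and with the 4 day 4 libraries alone, 30 without each gene's highest position, 38 with the second tables of replicate 1, 85 with 1 read per position and 93 with DESeq2. The last 2 and the setting without the highest position called 21, 28 and 4 genes for the change between phases (1 read per position, DESeq2 and highest position, in that order). The 4 genes were among those called under each of DESeq2, 1 read per position, without the highest position, the second tables, gene-body counts (5 calls, with HXT9) and coding sequence only (4 calls). Chosen after seeing the data, 22 genes were called under all 3 of DESeq2, 1 read per position and without the highest position, 19 higher (1 on chromosome XII, AQY2) and 3 lower (ALD3, GLO1 and MHO1). With 1 read per position 169 genes were 2-fold higher and 46 lower in both pairs, and in the other settings the counts were within 1.5 times. Leaving out 1 library gave 0 to 3 calls, none of them among the 4 (HXT9, YDL218W and YJR096W without euploid day 4 replicate 1, FUS1 without euploid day 4 replicate 2), 0 for the change between phases, and a shift of 0.72 to 0.91. The shift kept its direction in all 15 alternatives, from 0.66 to 0.96. With the replicate number as a block there were 5 calls, the 4 and YML031C-A (lower), and same-numbered day 4 libraries deviated together (r = 0.60 across genes), but 2 pairs do not establish the pairing. Without euploid day 4 replicate 2 the medians of hexose transporters (-0.00181, up to 3.10 over the libraries left out), sucrose, maltose and galactose use (-1.04, up to 2.66) and iron genes (-0.0259, up to 1.03) turned over, as did PUT1 (0.25, down to -1.48) and CCW12 (-0.13, up to 3.27), and without Chr12 day 4 replicate 1 the sucrose list did (-1.10). CTS1 turned over with gene-body counts (3.51), 1 read per position (2.45), the second tables (4.03) and without euploid day 4 replicate 1 (4.70, down to -2.47 without Chr12 day 4 replicate 2). The cause was not tested. The lists that differ kept their direction throughout but not their distance of 0.5, at 0.44 to 1.03 for the 40S and 0.48 to 1.06 for the 60S subunit, 0.55 to 1.91 for the respiratory chain, 0.31 to 1.15 for purine synthesis, 0.21 to 1.73 for ergosterol and -1.16 to -0.69 for peroxisomal oxidation. Depth limits pair 1, where many ratios rest on under 10 euploid reads.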
